A study of Mus musculus with 4 samples.

Results

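The MHC class I presentation machinery was described through 10 genes, taken as the rows with the symbols H2-K1, H2-D1, H2-T23, B2m, Tap1, Tap2, Tapbp, Psmb8, Psmb9 and Nlrc5, of 54838 genes in all. The cells were Hepa1-6, a mouse hepatocellular carcinoma line, grown as NC cells with the Acvr2a wild type genotype (2 samples) and as KO cells with the Acvr2a knockout genotype (2 samples). Acvr2a encodes a type II receptor for activins. The labels give no treatment or time, and they describe the KO cells as subclones without saying whether the KO samples came from separate clones or from 1. Nothing says that the samples of a group came from separate cultures, so p-values measure only the spread between these samples, which may be technical. The series title places the comparison in a study of lactate production and regulatory T cell attraction in liver cancer.

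MHC class I molecules carry short peptides from proteins made inside a cell to its surface, where CD8 T cells read them. Proteasomes cut the peptides, and the immunoproteasome subunits Psmb8 and Psmb9 replace constitutive catalytic subunits in that particle. The TAP transporter moves peptides into the endoplasmic reticulum, tapasin holds the empty class I molecule beside it, and a heavy chain folded with beta-2 microglobulin leaves for the surface once loaded. Interferons raise most of these genes, and Nlrc5 is the transactivator that acts on class I promoters together with the RFX, CREB/ATF and NF-Y factors. Hepatocytes normally hold little class I at their surface.

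Library totals ranged from 11597923 to 13910582 expected counts. Acvr2a itself was counted 81 and 108 times in NC and 75 and 97 times in KO, a log2 fold change of -0.21 (SE 0.20, 95% interval -0.63 to 0.21, edgeR quasi-likelihood test, adjusted p = 0.433). The gene-level RNA of the targeted gene therefore did not separate the groups, which are named by their labels throughout. Hepatic markers were present at a summed 3165 to 3413 CPM (counts scaled to the library size) in NC and 3617 to 3665 CPM in KO. They differed by gene: in KO, Alb and Trf were higher (log2 fold changes 0.41 and 0.54) and Afp was lower (-1.21). Ttr had at most 1 count in any library. Leukocyte markers summed to 13.2 to 15.4 CPM in NC and 10.6 to 11.2 CPM in KO, with Cd3e, Cd8a, Tyrobp and Nkg7 among those at 0 everywhere. Most of the leukocyte sum was Cd53, counted 126 and 171 times in NC and 94 and 103 times in KO. Cd53 was lower in KO (log2 fold change -0.67, edgeR adjusted p = 0.00351). Csf1r was counted 18 and 37 times in NC and 36 and 28 times in KO. Endothelial markers summed to 0.506 to 1.06 CPM in NC and 0.304 to 1.04 CPM in KO, with Cdh5 and Tek at 0 everywhere. Fibroblast markers summed to 11.8 to 12.8 CPM in NC and 25.0 to 27.5 CPM in KO, with Col3a1 at 0 everywhere and 2 of 5 tested, both of them higher in KO. Most of that sum was Pdgfra, whose CPM averaged 11.8 ± 0.691 among NC libraries and 23.2 ± 1.66 among KO libraries (SD, n = 2 each), and its part in the results that follow was not tested.

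Most of the tested members were higher in KO cells, but the members were chosen with earlier results of these data known. Other listed class I chains had a median log2 fold change of 0.48. That median was -0.0088 for the other peptide loading and trimming genes and -0.33 for the other immunoproteasome and PA28 genes. Of the 10 members, 9 passed the filter on low counts, and 8 of those were higher in KO at an adjusted p under 0.05 while 0 were lower. Across all 12510 genes tested, 37.9% were called in either direction, 19.7% higher and 18.2% lower, so a call as such was common in this comparison. In all 9 tested members both KO libraries lay above both NC libraries in CPM, as they did in 34.8% of all tested genes, and the groups failed to overlap in either direction in 69.4%. DESeq2 also called 8 of the 9 higher, against 13.3% of all genes, and limma on log2(TPM + 1) with a filter called 6 of the 9 higher, against 10.3% of all genes. Without that filter limma called 0 of all genes, so every call named here was lost in that fit, with 4506 genes at an unadjusted p under 0.05. The median log2 fold change of the 9 tested members was 0.61, against -0.0037 over all genes tested. The rises ran from 1.24-fold for B2m to 2.11-fold for Tap2. H2-T23 was not called, and H2-K1 was almost uncounted in both groups. In bulk RNA, fewer cells expressing a gene and less RNA per cell cannot be told apart.

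Promoter windows from RefSeq (GRCm38.p6, 250 bases before to 50 after the gene start) were found for 8 of the 10 members, and not for Tap2 and Nlrc5. The windows of H2-K1 (chr17:34000298-34000597, minus strand), H2-D1 (chr17:35262844-35263143, plus strand) and B2m (chr2:122147437-122147736, plus strand) are shown because these genes encode the heavy and light chains of classical class I molecules and ranged from the highest to the lowest level among the members. The window of Tap1 (chr17:34187306-34187605, plus strand) is shown because it overlaps that of Psmb9, which is read in the opposite direction. Each is printed from 5′ to 3′ on its gene's strand. Capitals mark an NF-kB consensus match, the interferon-response core AANNGAAA, the CREB/ATF-type core TGACG and the NF-Y-type core ATTGG, each read on either strand. Where it was read on the other strand the capitals show its reverse complement. In H2-K1, H2-D1 and B2m the TGACG and ATTGG in capitals are those that form a pair on the gene's strand, and further matches of either are left in lower case. The NF-kB matches of H2-K1 and H2-D1 overlap one another within a single run of capitals.
H2-K1: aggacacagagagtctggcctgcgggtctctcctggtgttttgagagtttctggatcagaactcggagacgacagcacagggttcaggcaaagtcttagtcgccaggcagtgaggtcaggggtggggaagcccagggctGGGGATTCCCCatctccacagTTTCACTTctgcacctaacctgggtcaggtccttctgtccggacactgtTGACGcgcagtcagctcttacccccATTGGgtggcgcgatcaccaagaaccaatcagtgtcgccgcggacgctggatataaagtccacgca
H2-D1: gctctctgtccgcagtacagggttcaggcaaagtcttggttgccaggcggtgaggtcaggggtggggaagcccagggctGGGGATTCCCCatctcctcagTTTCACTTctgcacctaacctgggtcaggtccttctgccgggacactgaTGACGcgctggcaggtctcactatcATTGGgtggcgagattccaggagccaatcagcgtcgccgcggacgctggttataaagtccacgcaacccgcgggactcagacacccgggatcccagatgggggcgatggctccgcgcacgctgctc
B2m: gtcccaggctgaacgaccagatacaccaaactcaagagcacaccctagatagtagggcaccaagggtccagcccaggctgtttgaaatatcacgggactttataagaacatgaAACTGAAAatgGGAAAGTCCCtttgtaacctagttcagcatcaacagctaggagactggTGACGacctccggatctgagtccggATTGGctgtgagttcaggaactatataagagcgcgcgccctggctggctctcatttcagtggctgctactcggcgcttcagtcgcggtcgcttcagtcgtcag
Tap1: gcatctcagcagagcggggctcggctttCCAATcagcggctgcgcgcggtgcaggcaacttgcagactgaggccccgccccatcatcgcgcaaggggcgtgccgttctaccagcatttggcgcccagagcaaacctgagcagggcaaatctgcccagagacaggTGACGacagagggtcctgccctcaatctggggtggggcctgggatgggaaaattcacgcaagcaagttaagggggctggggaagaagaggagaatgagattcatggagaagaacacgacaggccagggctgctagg

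The motifs were chosen after these sequences had been seen, so the matches are descriptions of the windows. AANNGAAA was present in 4 of the 8 member windows (H2-K1, H2-D1, H2-T23 and B2m) and in 23.9% of all 32851 windows searched in the same way. TGACG was present in 5 member windows and 20.8% of all windows. ATTGG was present in 7 member windows and 37.4% of all windows. The NF-kB consensus was present in 3 member windows and 8.46% of all, and the STAT-type motif TTCNNNGAA in 1 (Psmb8) and 8.30%. TGACG followed by ATTGG on the same strand at a gap of 10 to 30 bases was present in 0.743% of all windows, and in H2-K1, H2-D1 and B2m the gap was 20 bases in each. That pair together with the NF-kB and interferon-response motifs was found in 9 windows, which belong to 8 genes: B2m, H2-D1, H2-K1, H2-M3, H2-Q7, H2-Aa, Nrarp and Oasl1. The windows of H2-K1 and H2-D1 were identical at 214 of 239 aligned bases (89.5%). The levels of these genes stood far apart, and whether the windows bear on those levels was not tested.

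The classical heavy chains, which form the peptide groove, were represented by H2-D1 alone. H2-K1 (chr17:33996017-34000347, minus strand) was counted 0 and 1 times in NC and 0 and 0 times in KO. Its TPM, the deposited transcript abundance scaled for gene length and depth, was 0.34 in the 1 library with a count and was listed at 0 in the others. The limit that a count of 0 allows, 3 counts, lay between 0.222 and 0.264 CPM over the libraries at 0. A KO against NC difference was therefore not detectable at this depth and no fold is given. Genes on both sides of H2-K1 were counted: Rps18, a ribosomal protein gene, at 11619 to 13254 and Ring1 at 204 to 251, and none of the neighbours tested was called. Of the 3969 distinct 100-base stretches in the annotated H2-K1 transcripts, 38 (0.957%) also occur in another gene, H2-Q10 in each case.

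H2-D1 (chr17:35262730-35267499, plus strand) stood at 287.09 and 298.07 TPM in NC and at 429.51 and 408.99 TPM in KO. Both KO libraries lay above both NC libraries, with means of 292.6 ± 7.76 TPM (SD, n = 2) and 419.2 ± 14.5 TPM (SD, n = 2). On the count scale the log2 fold change was 0.47 (SE 0.09, 95% interval 0.29 to 0.66), or 1.39-fold (edgeR quasi-likelihood test, adjusted p = 0.0001885). H2-D1 made up the larger part of the class I heavy chain RNA, at 72.7% to 74.8% of the summed TPM of 16 heavy chain genes in each library.

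H2-T23 (chr17:36029773-36032855, minus strand) encodes Qa-1, a non-classical chain that presents signal-peptide fragments to NK and T cell receptors. It was counted 447 and 499 times in NC and 532 and 553 times in KO, or 31.01 and 30.96 TPM against 36.51 and 35.57 TPM. The KO libraries were above the NC libraries on both scales, but by a small margin on the count scale, at 36.03 to 39.32 CPM in NC and 40.38 to 40.94 CPM in KO. Its log2 fold change was 0.11 (SE 0.11, 95% interval -0.11 to 0.33, edgeR adjusted p = 0.431), which does not show that the gene was equal in the groups.

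**Figure D1:**
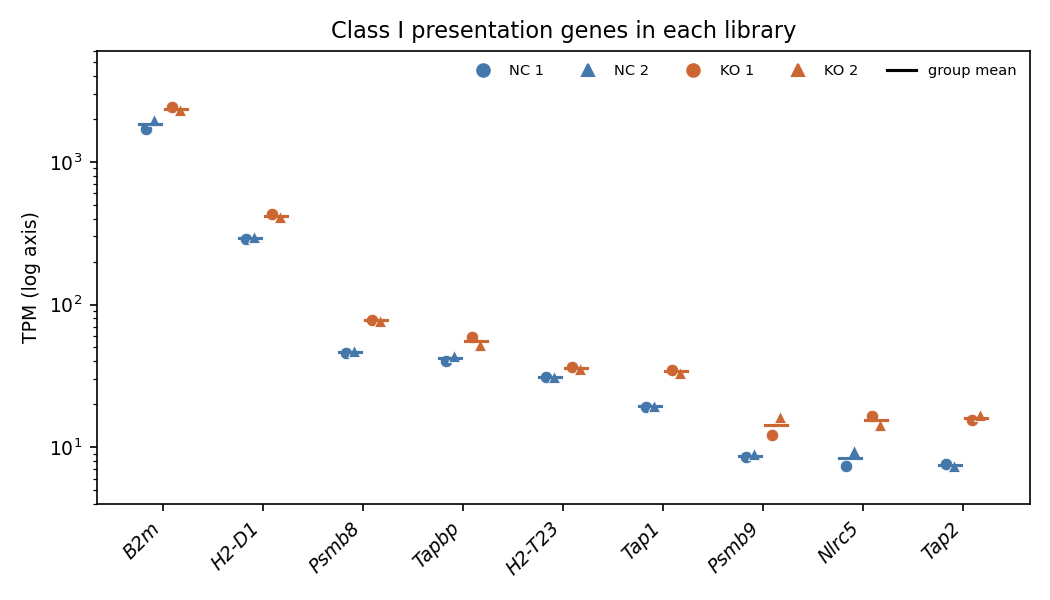
TPM of each member in the 4 libraries on a log axis, with points for libraries and bars for group means. The KO points lie above the NC points for the 9 tested members, and H2-K1, at or near 0, is not drawn.

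B2m (chr2:122147686-122153083, plus strand), the light chain shared by all class I molecules, was the most abundant member, ranked 57 to 79 of all genes by TPM. It stood at 1708.52 and 1953.81 TPM in NC and 2407.26 and 2314.43 TPM in KO, with means of 1831 ± 173 and 2361 ± 65.6 TPM (SD, n = 2 each). Both KO libraries were above both NC libraries. The log2 fold change was 0.31 (SE 0.09, 95% interval 0.11 to 0.50), or 1.24-fold (edgeR adjusted p = 0.0113), the smallest of the members called. Without NC 1 the log2 fold change was 0.25 and the call was lost (adjusted p = 0.129), as it was in both TPM fits with a filter (adjusted p = 0.0703 and 0.0710). The ratio of B2m TPM to the summed heavy chain TPM was 4.34 and 4.76 in NC and 4.19 and 4.18 in KO.

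Because RSEM can share reads among near-identical class I genes, the counts of the 16 heavy chain genes were also summed and entered as 1 feature. H2-D1 and H2-T23 also have 100-base stretches in common with Gm7030, Gm11127 and Gm8909. Those genes are not in the sum, so it does not cover reads shared with them. For H2-K1, H2-D1 and H2-T23 the deposited expected counts were whole numbers in every library, so no sharing showed there. The sum was 7042 and 8367 in NC and 10841 and 11151 in KO, or 619.4 and 604.2 CPM against 822.9 and 825.5 CPM. The groups did not overlap, and the log2 fold change was 0.43 (SE 0.09, 95% interval 0.24 to 0.62, edgeR adjusted p = 0.000543). Chain by chain, 12 of 17 other class I chains passed the filter, 6 were higher, 0 were lower and 6 were not called, with a median log2 fold change of 0.48. Over all genes tested, 19.7% were higher and 18.2% were lower. H2-Bl rose from 34 and 50 counts to 147 and 133 (log2 fold change 1.66, SE 0.22, edgeR adjusted p = 1.00e-06). H2-Q6 rose from 4 and 4 counts to 15 and 16 (1.84, SE 0.64, adjusted p = 0.0137), and as a near-copy of its neighbours it is uncertain. DESeq2 did not make that call (adjusted p = 0.131), and it was lost with any 1 library left out (adjusted p = 0.0714 to 0.123). H2-T10 rose by 0.93 (SE 0.26, edgeR adjusted p = 0.00548), but without KO 1 it was 0.57 and not called (adjusted p = 0.201), nor was it called in both TPM fits with a filter (adjusted p = 0.111 and 0.117). Mr1, which presents vitamin B metabolites to MAIT cells, rose by 0.69 (SE 0.12, adjusted p = 7.61e-05).

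The peptide transporter showed the largest change among the members. Tap1 and Tap2 encode the 2 subunits of TAP, the pump that carries peptides across the endoplasmic reticulum membrane. Tap2 (chr17:34203527-34216321, plus strand) was counted 196 and 227 times in NC and 444 and 501 times in KO, or 7.59 and 7.43 TPM against 15.54 and 16.70 TPM. Every KO count exceeded every NC count, and the log2 fold change was 1.08 (SE 0.13, 95% interval 0.82 to 1.33), or 2.11-fold (edgeR adjusted p = 1.64e-07). Only 5.73% of the tested genes had a log2 fold change at or above that of Tap2.

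Tap1 (chr17:34187553-34197225, plus strand) was counted 531 and 616 times in NC and 996 and 1028 times in KO, or 19.26 and 19.41 TPM against 34.64 and 33.25 TPM. The log2 fold change was 0.74 (SE 0.10, 95% interval 0.54 to 0.94), or 1.67-fold (edgeR adjusted p = 1.30e-06), and the groups did not overlap. Tap1 RNA remained the larger of the pair per length, with a Tap1 to Tap2 TPM ratio of 2.54 and 2.61 in NC and 2.23 and 1.99 in KO. Tap2 shares exonic bases with Gm20496 and Gm15821 on the opposite strand, and whether reads were counted by strand is not given in the sources used here.

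Tapbp (chr17:33915899-33929292, plus strand) encodes tapasin, which bridges TAP and the empty class I molecule. It stood at 40.32 and 43.80 TPM in NC and 59.17 and 51.84 TPM in KO, with the KO libraries above the NC libraries. The log2 fold change on the count scale was 0.34 (SE 0.09, 95% interval 0.15 to 0.53, edgeR adjusted p = 0.00435). In both TPM fits with a filter the call was lost (adjusted p = 0.0677 and 0.0727). Tapbp overlaps Zbtb22 on the same strand by 149 exonic bases and Gm19412 on the opposite strand by 904. Of its 100-base stretches 14.8% also occur in another gene, 569 of 572 of them in Gm19412, which was counted 4 and 5 times in NC and 18 and 13 times in KO. The Tapbp total is therefore uncertain.

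The other genes of peptide loading and trimming did not move as 1 group. Of 6 listed and tested, 1 was higher, 2 were lower and 3 were not called, with a median log2 fold change of -0.0088. The shares over all genes tested were 19.7% higher and 18.2% lower. Calr, calreticulin, a chaperone of the loading complex, was higher by 0.25 (SE 0.09, edgeR adjusted p = 0.0369). Its call was lost without NC 1 (0.19, adjusted p = 0.274), KO 1 (adjusted p = 0.0719) or KO 2 (adjusted p = 0.0516) and in the TPM fits (adjusted p = 0.0872 to 0.184). Tapbpl, the tapasin-related peptide editor, fell from 240 and 263 counts to 214 and 201 (log2 fold change -0.36, SE 0.14, adjusted p = 0.0405). The Tapbpl call was lost in 7 of 12 alternatives, among them DESeq2 (adjusted p = 0.168), upper-quartile scaling (0.0586), leaving out NC 1 (0.205) and leaving out KO 2 (0.178). Erap1, the aminopeptidase that trims peptides in the endoplasmic reticulum, was counted 531 and 649 times in NC and 447 and 503 times in KO (log2 fold change -0.39, SE 0.11, adjusted p = 0.00398). Its TPM values overlapped between the groups, at 66.84 and 65.20 in NC and 66.80 and 68.25 in KO, so that fall was not present per length. Erap1 shares 834 exonic bases with Cast on the opposite strand.

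**Figure D2:**
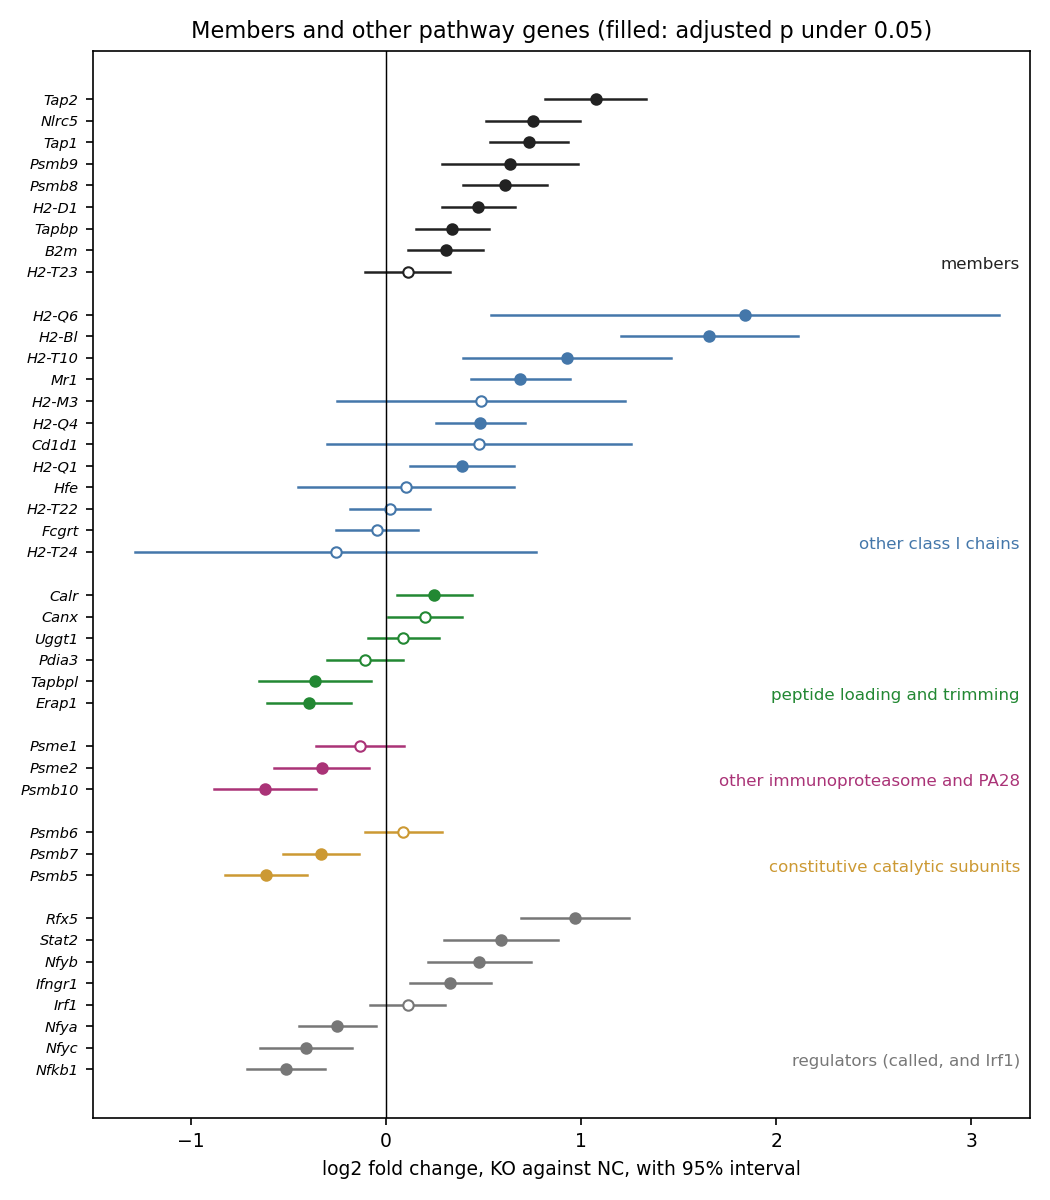
Log2 fold changes, KO against NC, with 95% intervals from the edgeR fit, for the tested members and the other tested pathway genes, with the regulators limited to those called and Irf1. Tap2 lies highest of the members at 1.08, H2-T23 includes 0, and Psmb10 and Psmb5 lie below 0.

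The catalytic proteasome subunits split by gene. Psmb8 (chr17:34197721-34201454, plus strand), the immunoproteasome counterpart of Psmb5, stood at 45.94 and 47.26 TPM in NC and 77.41 and 77.28 TPM in KO. The KO libraries were well above the NC libraries, and the log2 fold change on the count scale was 0.61 (SE 0.11, 95% interval 0.39 to 0.83), or 1.53-fold (edgeR adjusted p = 5.33e-05). Psmb9 (chr17:34181987-34187764, minus strand), the counterpart of Psmb6, was counted 96 and 126 times in NC and 160 and 205 times in KO, or 8.56 and 8.92 TPM against 12.21 and 16.23 TPM. Its KO libraries differed from each other more than its NC libraries did, and the log2 fold change was 0.64 (SE 0.17, 95% interval 0.29 to 0.98, edgeR adjusted p = 0.00379). Without KO 2 it was 0.46 and the call was lost (adjusted p = 0.0882). The annotated ends of Psmb9 and Tap1 share 212 exonic bases on opposite strands. Deposited expected counts of Psmb9 were fractional, at 95.59 and 126.33 in NC and 159.72 and 205.29 in KO. Those of Tap1 were fractional too, at 531.41 and 615.67 in NC and 996.28 and 1027.71 in KO. Fractional values arise where reads are shared among genes, so the Psmb9 and Tap1 totals are uncertain.

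Psmb10, the remaining immunoproteasome catalytic subunit and the counterpart of Psmb7, went the other way. It stood at 38.70 and 44.24 TPM in NC and 30.42 and 24.33 TPM in KO, with a log2 fold change of -0.62 on the count scale (SE 0.13, edgeR adjusted p = 0.000374). Of the PA28 activator genes, Psme2 fell by 0.33 (SE 0.12, adjusted p = 0.0291) and Psme1 had a log2 fold change of -0.13 (adjusted p = 0.356). The Psme2 value was -0.14 without NC 1 (adjusted p = 0.494) and -0.24 without KO 2 (adjusted p = 0.156), and its call was also lost with DESeq2 (adjusted p = 0.118) and in both TPM fits with a filter (adjusted p = 0.203 and 0.211). Among the constitutive catalytic subunits, Psmb5 fell from 95.45 and 94.38 TPM to 68.47 and 60.75 TPM (-0.61, SE 0.10, adjusted p = 3.08e-05). Psmb7 fell by 0.33 (SE 0.09, adjusted p = 0.00645) and shares exonic bases with Nek6 on the opposite strand. The Psmb7 call was lost without NC 1 (adjusted p = 0.0856) and in the TPM fits (adjusted p = 0.129 to 0.190). Psmb6 had a log2 fold change of 0.089 (adjusted p = 0.495).

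The ratio of summed immunoproteasome TPM (Psmb8, Psmb9 and Psmb10) to summed constitutive TPM (Psmb5, Psmb6 and Psmb7) was 0.251 and 0.275 in NC and 0.341 and 0.381 in KO. The KO mean was 1.37 times the NC mean, at 0.361 ± 0.0279 against 0.263 ± 0.0174 (SD, n = 2 each), and the groups did not overlap. An exact two-sided permutation test over 2 against 2 libraries cannot give a p below 0.333, so no call is made. The pairs differed in direction: Psmb8 to Psmb5 was 0.481 and 0.501 in NC and 1.13 and 1.27 in KO, whereas Psmb10 to Psmb7 was 0.299 and 0.352 in NC and 0.272 and 0.245 in KO. Psmb9 to Psmb6 was 0.0584 and 0.0618 in NC and 0.0713 and 0.109 in KO.

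**Figure D3:**
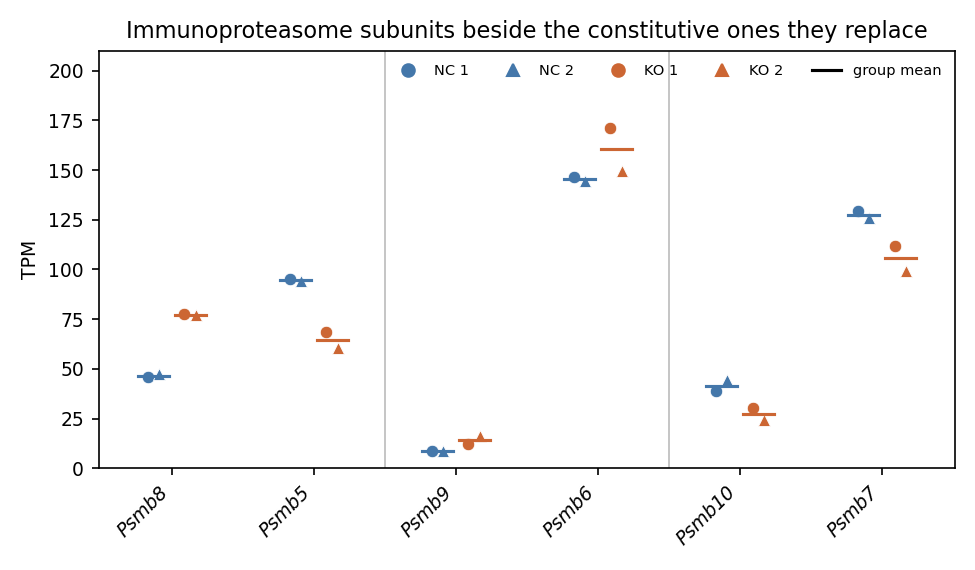
TPM of the immunoproteasome and constitutive catalytic subunits in the 4 libraries. Psmb8 is at 77.41 and 77.28 TPM in KO, above Psmb5 in the same libraries, whereas in NC Psmb5 lies above Psmb8.

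Nlrc5 (chr8:94434356-94527272, plus strand), the class I transactivator, was counted 279 and 299 times in NC and 491 and 544 times in KO, or 7.36 and 9.40 TPM against 16.63 and 14.26 TPM. The groups did not overlap, and the log2 fold change was 0.75 (SE 0.12, 95% interval 0.51 to 0.99, edgeR adjusted p = 1.41e-05). Of the tested genes, 9.82% had a log2 fold change at or above that of Nlrc5. Like B2m on chromosome 2, it lies outside the MHC, so the rise was not limited to members on chromosome 17.

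Of 24 other regulators listed, 23 were tested, of which 4 were higher, 3 were lower and 16 were not called, with a median log2 fold change of 0.056. Calls were thus no more common among them than over all genes tested, of which 19.7% were higher and 18.2% lower. Rfx5, the DNA-binding RFX subunit at class I and class II promoters, rose from 189 and 253 counts to 394 and 520 (log2 fold change 0.97, SE 0.14, edgeR adjusted p = 2.73e-06). The RFX genes Rfxap and Rfxank were not called (log2 fold changes 0.13 and 0.18, edgeR adjusted p = 0.533 and 0.338). Creb1 was not called either (6.3e-05, edgeR adjusted p = 0.9996). Stat2, a signal transducer of type I interferon, rose by 0.59 (SE 0.14, adjusted p = 0.00184), and Nfyb, an NF-Y subunit, by 0.48 (SE 0.13, adjusted p = 0.00441). The other NF-Y subunits were lower, with log2 fold changes of -0.25 for Nfya (edgeR adjusted p = 0.0409) and -0.41 for Nfyc (edgeR adjusted p = 0.00627). NF-Y genes therefore did not share a direction. Nfkb1 fell by 0.51 (SE 0.10, adjusted p = 0.000167), a call lost in both TPM fits with a filter (adjusted p = 0.0928 and 0.0978). Irf1 and Ifngr1 were picked with their values known, because they carry the interferon-gamma signal to class I genes. Irf1 had a log2 fold change of 0.11 (edgeR adjusted p = 0.370). Ifngr1, a receptor subunit, rose by 0.33 (adjusted p = 0.0115), a call that was lost without NC 2 (0.25, adjusted p = 0.128) or without KO 2 (0.18, adjusted p = 0.235), and in both TPM fits with a filter (adjusted p = 0.0504 and 0.0555). Of 7 interferon ligand genes, 6 were at 0 counts in every library and Ifnk had at most 2.

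By TPM the order of the members in NC was B2m, H2-D1, Psmb8, Tapbp, H2-T23, Tap1, and then Psmb9, Nlrc5 and Tap2, with H2-K1 last. Mean B2m TPM was 6.26 times that of H2-D1 in NC and 5.63 times in KO, and mean H2-D1 TPM was 6.28 and 5.42 times that of Psmb8. In KO the first 6 places were the same, but Tap1 came to within 1.06 times of H2-T23. Psmb9, Nlrc5 and Tap2 were not separate from their neighbours among these 3 in either group, since their libraries overlapped.

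Along chromosome 17, 8 of the 10 members lie in the MHC, and Psmb9, Tap1, Psmb8 and Tap2 lie within 34335 bases of each other. From Tapbp to H2-T23 (chr17:33915899-36032855) 6 of the 7 tested members were higher. Of the 86 other tested genes of that stretch, class I chains left out, 15 were higher (17.4%) and 12 were lower, with a median log2 fold change of -0.065. That share of higher calls was close to the 19.7% of all genes tested. Close to Psmb9, Tap1, Psmb8 and Tap2, however, the tested non-members were higher too. Their log2 fold changes were 0.92 for Brd2, 1.61 for H2-DMa, 1.10 for H2-DMb1 and 3.70 for H2-Ab1. Counts in NC were low for H2-DMa (17 and 20), H2-DMb1 (31 and 39) and H2-Ab1 (5 and 9). The next tested genes outward, Col11a2 and H2-Eb1, were not called, with log2 fold changes of 1.31 and -0.069 (edgeR adjusted p = 0.0616 and 0.881). Col11a2 was counted 8 and 4 times in NC and 18 and 14 times in KO, so no edge of the raised stretch is placed there. Whether these neighbours and the members rose together was not tested.

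**Figure D4:**
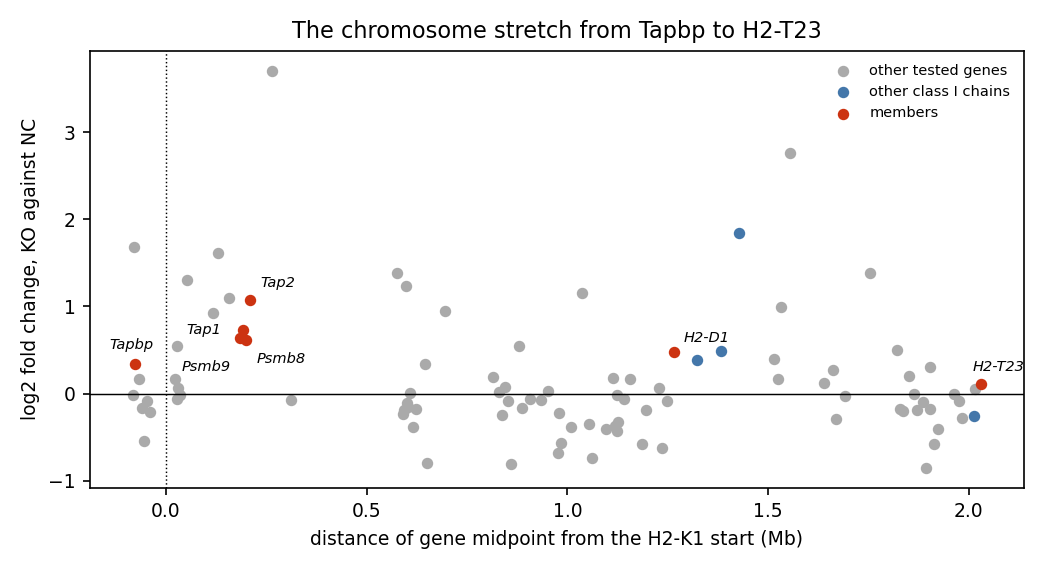
Log2 fold change, KO against NC, of the tested genes from Tapbp to H2-T23 by distance of the gene midpoint from the H2-K1 start in megabases. The members lie above 0. The other genes, class I chains left out, have a median of -0.065, with H2-Ab1 at 3.70 above every member.

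Among genes averaging 5 or more in log2 CPM, those whose centred log2 CPM over the 4 libraries lay nearest to the members' median profile included Magi3, Irgq, H1f0 and Cxadr, at Euclidean distances of 0.0656 to 0.0778. Their log2 fold changes were 0.50 to 0.57. The members' own distances from that profile ran from 0.117 for Psmb8 to 0.523 for Tap2. The likeness is over 4 libraries only.

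**Figure D5:**
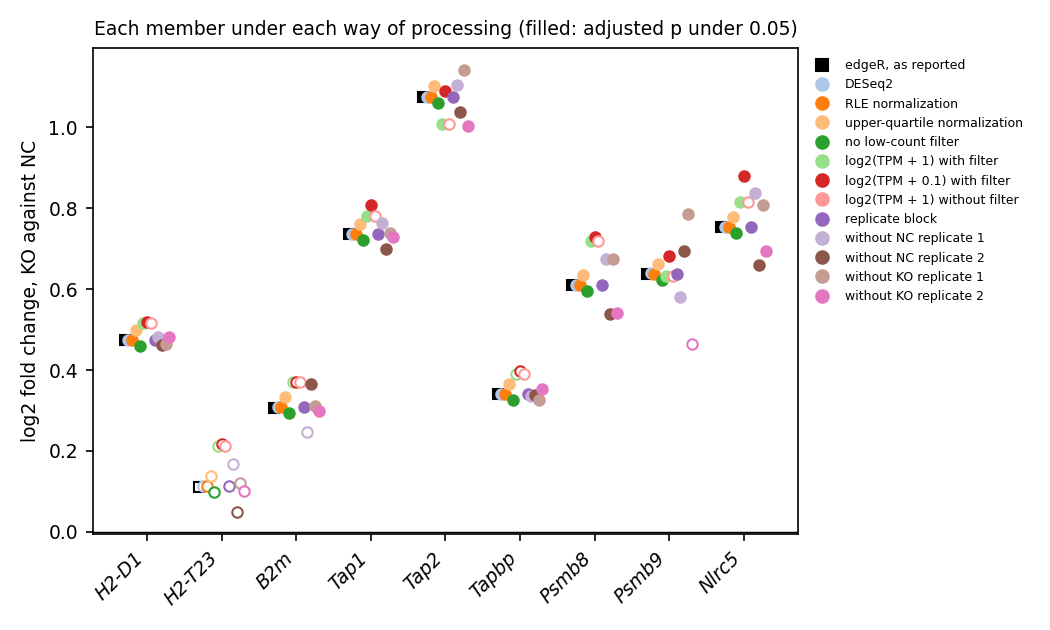
Log2 fold change, KO against NC, of each tested member under the edgeR fit and under each alternative, with filled points for calls. The points of each tested member lie above 0 under all settings shown. The 8 called members lose their call on log2(TPM + 1) without a filter, and B2m, Tapbp and Psmb9 lose it under at least 1 other setting too.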

How the data were processed

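RNA was extracted with TRIzol, treated with DNase and made into libraries with a directional kit, per the labels' protocols. FastQC, STAR, RSEM and DESeq2 and the builds GRCm38 and mm10 are named per the submitters' processing notes. The annotation release, strand setting and versions are not given in the sources used here. The deposited expected counts are RSEM-type gene-level estimates, per the file headers, which share multi-mapped reads among genes. TPM and FPKM were deposited beside them as length-scaled columns. TPM served for levels between genes, and FPKM only for 1 alternative of the proteasome ratio.

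Expected counts were rounded (library totals moved by at most 0.000188%), filtered with filterByExpr, scaled by TMM and tested with edgeR 4.0.16 (quasi-likelihood, R 4.3.3), with no term besides the group, over 12510 genes. Adjusted p-values are Benjamini-Hochberg values with a threshold of 0.05. CPM uses the TMM-scaled library size. The code was tested on simulated data. Alternatives used limma 3.58.1 on log2(TPM + 1) or log2(TPM + 0.1) and DESeq2 1.42.0. Intervals cover counting error and a spread estimated over genes (25.8 prior degrees of freedom), and PCR copies were not separated. Positions come from GENCODE M21 (GRCm38), matched by gene ID. All 10 members matched, 7 of them with the same gene version. H2-K1, Psmb8 and Psmb9 differed in version, so their positions and overlaps may not be those of the models counted.

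The members and lists were chosen with earlier results of these data known. All members are named, with the called genes of the 4 largest absolute changes per pathway list, every gene of lists of 3 or fewer, and the nearest profiles. Some genes that meet this rule or belong to the lists are not reported here. Other genes were named after their values were seen.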

Additional observations from a re-analysis of the deposited data

How the results depend on the processing

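Of 108 alternative values for the tested members, 94 kept their direction and their side of the threshold, 14 kept the direction but lost the call, and 0 reversed. Members called numbered 8 of 9 with DESeq2, RLE or upper-quartile scaling and the replicate block, and 8 of 10 with no count filter. On log2(TPM + 1) and log2(TPM + 0.1) with a filter at 1 TPM, 6 were called, without B2m and Tapbp, and on log2(TPM + 1) without a filter 0 were called by limma, with 9 at an unadjusted p under 0.05. Leaving out 1 library at a time gave 7 to 8. Genes called numbered 4741, against 1819 and 1686 in the filtered TPM fits, 0 without a filter (4506 at an unadjusted p under 0.05), 3217 with DESeq2 and 3507 to 4488 with a library left out. The first filtered TPM fit called 1231 higher and 588 lower, against 2459 and 2282. The replicate block called 5006 genes, but same-numbered libraries did not deviate together over genes (correlation -0.0116). With 1 difference per group, that value cannot decide whether the numbers pair the samples. The heavy chain total lost its call on unfiltered TPM (0.49, adjusted p = 0.0916). The immunoproteasome ratio between groups was 1.78 from Psmb8 and Psmb9 over Psmb5 and Psmb6 alone, and 1.37 from FPKM. Erap1 reversed to 0.032 in each of the TPM fits. The cause of these changes was not tested. H2-K1, with 1 count in all, could not be compared at this depth. The values of named genes that are not members under these settings were added after seeing the data.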

Other observations

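For some pathway genes outside the members the deposited mean transcript length differed between the groups, and counts and TPM gave different sizes. Stat2 had a log2 fold change of 0.59 on the count scale and 0.96 on log2(TPM + 1), with a mean transcript length of 3623.85 and 3085.69 bases in NC and 2427.91 and 2568.91 bases in KO. Irf1 had 0.11 on the count scale and 0.36 on log2(TPM + 1), with lengths of 2056.6 and 1887.62 bases in NC and 1729.25 and 1761.75 bases in KO. Erap1 lengths were 977.75 and 1040.55 bases in NC and 827.14 and 842.54 bases in KO, beside the fall in its counts and the overlap of its TPM values. Col1a1, a fibroblast-type collagen gene, was counted 6 and 5 times in NC and 38 and 41 times in KO, a log2 fold change of 2.73.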
